A study of Mus musculus with 13 samples.

Results

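The bladder and the urethra are the fluorescent regions of the lower urinary tract in SMGA/EGFP embryos, and they were compared here as 3 bladder arrays against 3 urethra arrays, 6 of the 13 arrays of the series. The arrays were chosen by sample title and source name, and no measured value entered the choice. All 6 samples came from embryonic day 14 offspring of FVB/N females mated to SMGA/EGFP transgenic males, a line in which regulatory sequence of the smooth muscle gamma-actin gene Actg2 drives a green fluorescent protein. The transgene was present in every region, so no sample without it entered the comparison. Both regions were cut out where the reporter glowed, whereas the urogenital sinus between them, 4 arrays that shared the fit but not the comparison, was cut out where it did not. The remaining 3 arrays held reference RNA of whole newborn mice. Each embryonic sample was a single dissection and not a pool, and the sex of the embryos was recorded as unknown. Bladder replicate 2 and urethra replicates 1 and 2 were staged as Theiler stage 21, and bladder replicates 6 and 8 and urethra replicate 6 as Theiler stage 22. The labels name bladder replicate 2 a primitive bladder. The reporter guided the cut but did not sort cells, so each sample held muscle together with the epithelium, vessels and connective tissue around it, and fewer cells of a type and less RNA per cell cannot be told apart in such tissue.

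The bladder forms from the upper part of the urogenital sinus, an endodermal tube that comes to be lined by urothelium and wrapped in mesenchyme. The outer mesenchyme of the bladder becomes detrusor smooth muscle. The urethra continues from the sinus towards the genital tubercle, the precursor of the external genitalia, and meets surface ectoderm and perineal muscle there. Sonic hedgehog from the endodermal epithelium acts on the neighbouring mesenchyme in both organs. Smooth muscle genes are read under serum response factor and its partner myocardin, which act through a short promoter element called the CArG box.

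Values are log2 signal intensities, on which a step of 1 is a 2-fold change, and every difference is bladder minus urethra. Correlation between arrays, over all genes tested, was 0.954 to 0.972 within bladder, 0.916 to 0.946 within urethra and 0.859 to 0.937 between them. The median intensity was 238, 227 and 142 on bladder arrays 2, 6 and 8, and 221, 378 and 243 on urethra arrays 1, 2 and 6. Bladder array 8 was thus the dimmest and urethra array 2 the brightest, with 47.1% and 67.4% of probe sets above the level used as a filter (log2 7.39). Hybridization spike-ins were dimmer on every bladder array (12.42 to 12.73) than on every urethra array (12.98 to 13.63), and the part of these differences in the results was not tested. The sample titles take 3 forms, of which bladder has forms 1 and 2 and urethra form 3 alone, so title form and region cannot be told apart within the 6 arrays. The Y-linked gene Uty was 5.94, 9.98 and 10.06 on the bladder arrays and 5.65, 5.95 and 8.66 on the urethra arrays. Signal from the Y chromosome was therefore present on 2 bladder arrays and 1 urethra array, and its part in the results was not tested.

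The promoter windows below show the CArG box, the element through which muscle genes are read, at genes that were and were not called between the regions. They are the 250 bases before the start site, 5′ to 3′ on the gene's strand, from RefSeq on GRCm38.p6, with the CArG box in capitals. Myom1 lies on the plus strand (chr17:71019307-71019556), Hopx on the minus strand (chr5:77115124-77115373) and Myl9 on the plus strand (chr2:156775214-156775463).
Myom1, higher in bladder: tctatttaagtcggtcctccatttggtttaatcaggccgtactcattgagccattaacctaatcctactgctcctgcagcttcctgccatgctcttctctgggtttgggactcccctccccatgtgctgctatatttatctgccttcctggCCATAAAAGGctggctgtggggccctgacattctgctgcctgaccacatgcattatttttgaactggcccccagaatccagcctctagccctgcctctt
Hopx, higher in bladder: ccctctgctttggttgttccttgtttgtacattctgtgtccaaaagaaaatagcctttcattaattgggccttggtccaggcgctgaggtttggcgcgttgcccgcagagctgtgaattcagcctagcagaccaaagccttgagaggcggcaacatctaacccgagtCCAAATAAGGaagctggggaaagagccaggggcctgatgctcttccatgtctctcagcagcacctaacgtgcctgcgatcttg
Myl9, not called: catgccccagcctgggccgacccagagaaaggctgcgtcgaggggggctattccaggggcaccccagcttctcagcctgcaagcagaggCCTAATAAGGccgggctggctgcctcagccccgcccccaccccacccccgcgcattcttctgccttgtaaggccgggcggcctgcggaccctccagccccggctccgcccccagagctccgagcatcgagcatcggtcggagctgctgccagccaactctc
The pattern searched, CC and GG around a run of A or T, is its own reverse complement, so both strands were covered. It was present in 3 of the 23 smooth muscle contractile genes with a window (13%: Myl6, Myl9 and Vcl) and in 6 of 22 cardiac-type sarcomere genes (27.3%: Actc1, Hopx, Ldb3, Myl3, Myl7 and Myom1). Among all 27025 genes with a window the share was 1.62%. It was 4.08% of the genes called higher in bladder (8 of 196 with a window), 1.64% of those called lower (5 of 305) and 1.36% of those not called (157 of 11528). These shares are descriptions, and a match in a window is not a measured binding site.

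The bladder and urethra differed in 658 genes. The largest differences were those of Tbx20, Colec11 and Tbx18 on the bladder side and of Sall1, Pdlim4 and Krt5 on the urethra side. Of 15019 genes tested, 658 were called at a limma adjusted p under 0.05, which is 4.38% of them. Of these, 258 were higher in bladder (1.72% of genes tested) and 400 lower (2.66%). Called differences ran from 0.86 to 6.64 for genes higher in bladder (median 1.84) and from -5.92 to -0.97 for genes lower in bladder (median -2.09). More than 4-fold differences were seen for 113 genes higher and 214 lower in bladder. Bladder and urethra values did not overlap for any of the 658, whereas they did not overlap for 34.4% of all genes tested. Whether a bladder and a urethra sample could share an embryo or litter is not recorded, and p-values measure the spread among these samples, which may be technical.

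The balance of the calls moved with the scaling of the arrays. The deposited scale gave 39.2% of calls higher in bladder and a median difference over all genes of -0.25, or -0.14 with genes below the filter level in 1 region set at the bound of their difference and those below it in both left out. Quantile normalization gave 405 calls (225 higher and 180 lower, 55.6% higher) and a median of -0.02, and centring the arrays on their medians gave 329 calls (239 and 90, 72.6% higher) and a median of 0.22. Small differences below 0 should therefore be read against -0.25. Every array carried weight: 143, 107 and 227 genes were called without bladder replicate 2, 6 or 8, and 233, 233 and 348 without urethra replicate 1, 2 or 6. Of the 658 genes, 93 remained called without each of the 6 arrays in turn. Title form as a block, estimated through the reference arrays, left 56 calls (4 higher and 52 lower), 28 of them among the 658, although 632 of the 658 kept their sign. Outside the urethra, form 3 occurs on reference array 3 only, so for form 3 that block rests on 1 newborn array.

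**Figure D1:**
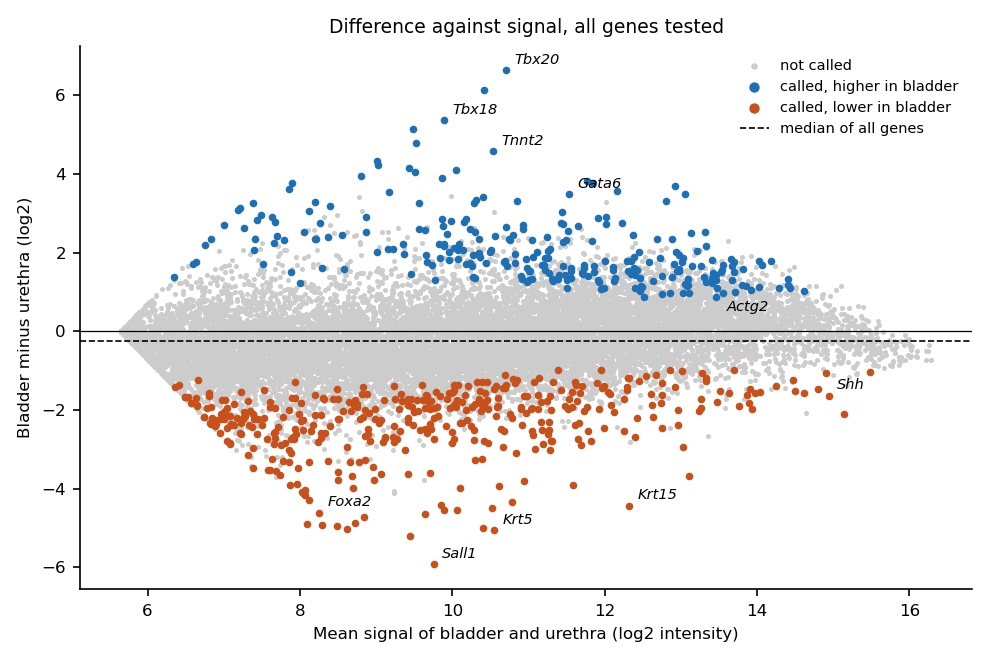
Each point is 1 of the 15019 genes tested, with the mean log2 signal of bladder and urethra on the x axis and bladder minus urethra (log2) on the y axis. The 258 genes called higher in bladder are blue, the 400 called lower are orange, and the dashed line marks the median of all genes at -0.25. Tbx20 (6.64) and Sall1 (-5.92) lie at the extremes.

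The muscle reporter gene did not separate the regions. Actg2, the source of the reporter, was 13.97, 13.51 and 13.55 on the bladder arrays and 12.89, 13.65 and 13.40 on the urethra arrays. The groups overlapped, with a difference of 0.36 (SE 0.57, limma adjusted p = 0.724), and the urogenital sinus, dissected as non-fluorescent, averaged 9.26. That SE draws on the sinus too, where the SD was 1.15, against 0.26 in bladder and 0.39 in urethra. Actg2 was not called with the 6 arrays alone either. Of 27 smooth muscle contractile genes, 1 was called higher and 0 lower in bladder by limma (2 higher and 2 lower at an unadjusted p under 0.05), and the median difference was 0.03. It was 0.20 after quantile normalization and 0.50 after centring, beside all-gene medians of -0.02 and 0.22. The mean of the list was 12.47, 12.23 and 12.15 on the bladder arrays and 11.81, 12.43 and 12.46 on the urethra arrays.

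Single contractile genes ranged widely around that median. Cav1, the main protein of caveolae, was 14.88, 15.03 and 15.07 in bladder and 13.79, 13.51 and 14.16 in urethra, a difference of 1.17 (SE 0.21, adjusted p = 0.0172). It was the only contractile list member called, and it lost the call when any array but urethra replicate 6 was left out and after centring (adjusted p = 0.0608). Tagln, which codes for the actin-binding protein transgelin, was 12.13, 11.16 and 12.30 against 8.50, 10.26 and 10.55, a difference of 2.09 that was not called (adjusted p = 0.0893). The ratio of 3′ to 5′ signal for actin, a sign of RNA quality, was 3.42 (log2) on urethra array 1 and 4.04 on bladder array 8, against 1.34 to 2.07 on the other 4 arrays. The same ratio for Gapdh did not set these arrays apart. It was 4.26, 5.26 and 5.21 on bladder arrays 2, 6 and 8 and 4.59, 2.71 and 4.54 on urethra arrays 1, 2 and 6. The part of either ratio in the values was not tested. Myh11, the smooth muscle myosin heavy chain, was 10.55 on urethra array 1 against 11.74 and 12.70 on the other urethra arrays and 12.39 to 12.76 in bladder. Acta2, which codes for smooth muscle alpha-actin, was 15.59 to 15.84 in bladder and 15.80 to 16.16 in urethra, with overlapping values.

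Of 19 smooth muscle regulators tested, 3 were called higher and 1 lower in bladder, with a median difference of 0.04 (-0.07 after quantile normalization and 0.51 after centring). Gata6, a zinc finger factor of visceral mesoderm, was 13.67, 13.23 and 12.92 in bladder and 10.19, 10.44 and 8.74 in urethra. The groups were over 2 log2 units apart, with a difference of 3.48 (SE 0.63, adjusted p = 0.0196). Klf4, a zinc finger repressor of muscle differentiation genes, was higher by 1.65 (SE 0.31, adjusted p = 0.0215). Mef2c, a MADS-box factor of muscle, was higher by 1.52 (SE 0.33, adjusted p = 0.0334), but its 4 other probe sets ran from -0.84 to 2.35. Foxf2, a forkhead factor of gut and lower urinary tract mesenchyme, went the other way, at 9.74, 9.73 and 9.83 in bladder and 12.72, 12.99 and 12.66 in urethra. Its difference of -3.02 (SE 0.33, adjusted p = 0.00261) remained called without each array in turn, unlike those of the other 3: of the 3 higher calls, 0 held without bladder replicate 2, 6 or 8 or urethra replicate 1, and 1 held without urethra replicate 2 and without urethra replicate 6. Myocd, which codes for myocardin, was 14.78, 15.11 and 12.93 against 10.28, 14.74 and 14.58, so urethra replicate 1 and, less so, bladder replicate 8 lay below the other arrays of their group, and the groups overlapped. Srf, its partner, was 12.77 to 12.98 in bladder and 12.14 to 13.25 in urethra.

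The calls in the cardiac-type sarcomere list were few and all higher in bladder. Of 22 cardiac-type sarcomere genes, 3 were called higher and 0 lower by limma (4 and 3 at an unadjusted p under 0.05). Tnnt2, cardiac troponin T, was 13.28, 12.70 and 12.48 in bladder and 7.41, 10.02 and 7.31 in urethra. Urethra replicate 2 stood above the other urethra arrays but below every bladder array, and the difference was 4.58 (SE 0.72, adjusted p = 0.0118). A further probe set of Tnnt2 gave 4.66. Myom1, which codes for the M-band protein myomesin, was 10.94, 11.23 and 11.70 against 8.20, 8.52 and 8.62, a difference of 2.85 (SE 0.39, adjusted p = 0.00702). Hopx, a homeodomain-only protein that binds serum response factor, was 11.29, 11.32 and 11.88 against 8.88, 9.62 and 9.96, a difference of 2.01 (SE 0.35, adjusted p = 0.0168). Both carry the CArG box printed above. The other probe set of Hopx gave 0.46. The call of Myom1 held without each array in turn, whereas that of Tnnt2 was lost without bladder replicate 2 or 6 (largest adjusted p 0.0567 over the 6 fits) and that of Hopx without any bladder replicate.

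The rest of that list did not follow Tnnt2. Of the 22 genes, 13 were below 0, beside 62.9% of all genes tested. The list median of -0.15, beside -0.25 over all genes, turned to 0.12 after quantile normalization and 0.32 after centring. Myh7 and Tnnc1, which slow skeletal muscle shares with heart, were below the filter level on every bladder array and at least 5.16-fold and 3.40-fold higher in urethra, without a call (adjusted p = 0.109 and 0.214). The skeletal muscle list moved with these genes: its mean was 6.50 to 6.81 on the bladder arrays, 7.11 and 6.91 on urethra arrays 1 and 6, and 9.07 on urethra array 2. Myog, the muscle differentiation factor myogenin, was 5.86, 6.31 and 6.32 in bladder and 8.24, 12.23 and 7.62 in urethra. Of 28 skeletal muscle genes, 0 were called by limma in either direction (0 higher and 5 lower at an unadjusted p under 0.05). Of the 28, 26 lay below 0, beside 62.9% of all genes, with a median of -0.77 (-0.54 with genes at their bound). The summed intensity of the 6 skeletal muscle markers was 569 to 938 in bladder and 878 to 13460 in urethra, and their part in the values of urethra replicate 2 was not tested.

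Receptors and channels of muscle gave a further 3 calls of 20, all higher in bladder. Scn7a, a sodium channel subunit, was 9.53, 10.26 and 10.20 against 5.65, 8.11 and 6.66, a difference of 3.19 (SE 0.61, adjusted p = 0.023). Kcnq5, a voltage-gated potassium channel, was higher by 2.78 (SE 0.54, adjusted p = 0.025) and Ptger3, a receptor for prostaglandin E, by 1.96 (SE 0.41, adjusted p = 0.0299). None of the 3 calls held without bladder replicate 2, 6 or 8 or urethra replicate 6, and 1 held without urethra replicate 1 and 2 without urethra replicate 2. With title form as a block, Kcnq5 turned to -0.98 (adjusted p = 0.746).

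A pair of T-box factors was among the genes of largest difference in favour of the bladder. Tbx20, a T-box repressor best known from heart, was 13.95, 14.22 and 13.91 in bladder and 6.33, 8.80 and 7.04 in urethra. The difference of 6.64 (SE 0.56, adjusted p = 0.00169) was the largest of all genes called, its 2 other probe sets gave 1.32 to 4.62, and the sinus averaged 11.09. Tbx18, a T-box factor of ureter and epicardial mesenchyme, was 11.91, 12.52 and 13.29 against 5.65, 9.66 and 6.30. Its difference of 5.37 (SE 0.97, adjusted p = 0.0196) lost the call when any array but urethra replicate 2, the array with the highest urethra value, was left out. Tbx2 and Tbx3, which are also T-box genes, differed by -1.29 and -0.07 and were not called.

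**Figure D2:**
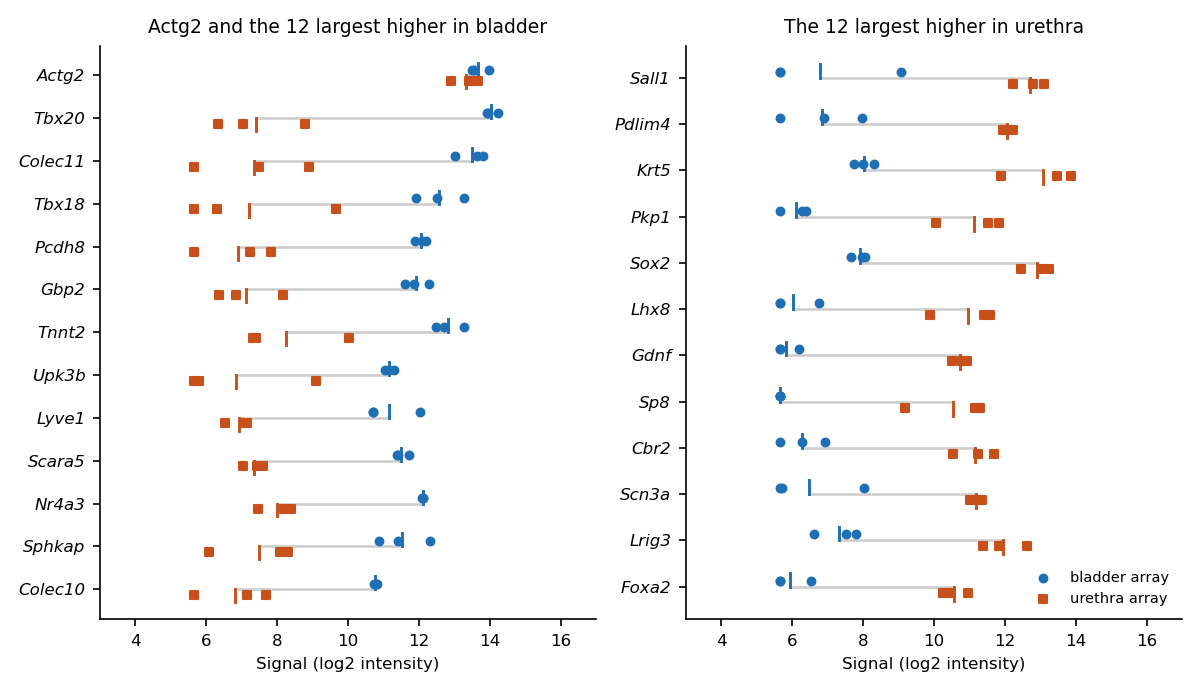
Log2 signal on each array for Actg2 and the 12 called genes with the largest difference in each direction, bladder arrays as blue circles and urethra arrays as orange squares, with short bars at the group means. Actg2 overlaps between the regions, and the groups are apart for each of the other genes. Tbx18, Tnnt2 and Upk3b each have 1 urethra array, replicate 2, above the rest.

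The other genes of large difference on the bladder side were secreted, membrane or nuclear proteins of several kinds. Colec11 and Colec10, which code for collectins that recognize sugars, were higher by 6.14 (SE 0.94, adjusted p = 0.0103) and 3.95 (SE 0.60, adjusted p = 0.00976). The probe set of Colec11 carries shared probes and can bind related genes. Nr4a3, an orphan nuclear receptor, was 12.07, 12.13 and 12.11 in bladder and 8.19, 7.45 and 8.38 in urethra. Those 3 bladder values lay within 0.1 of each other, and its difference of 4.10 (SE 0.40, adjusted p = 0.00169) was called in all 25 alternative settings. Pcdh8, a protocadherin, was higher by 5.15 and Sphkap, an anchoring protein for protein kinase A, by 4.04, a call lost without bladder replicate 6 or 8. Gbp2, an interferon-induced GTPase, was higher by 4.80, and it lost its call without bladder replicate 2. Scara5, a scavenger receptor, was higher by 4.15, but its adjusted p of 0.0483 was lost without any array, and its other probe set gave -0.31. The SD of Scara5 was 0.19 in bladder, 0.28 in urethra and 2.12 in the sinus, and it was called with the 6 arrays alone.

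Urothelial differentiation genes leaned to the bladder in their median, with few calls. Uroplakins are membrane plaque proteins of the urothelial surface. Upk3b was 11.30, 11.15 and 11.05 in bladder and 5.81, 9.09 and 5.65 in urethra, which differed by 4.32 (SE 0.84, adjusted p = 0.0249) on a probe set with shared probes. Upk3a was 11.43, 11.18 and 9.29 against 8.92, 8.84 and 8.75, and Upk1b was 13.27, 13.24 and 12.70 against 12.69, 10.87 and 11.89. For both genes every bladder array lay above every urethra array, although neither difference was called (1.80, adjusted p = 0.178, and 1.25, adjusted p = 0.231). Upk2 differed by 0.64, and Upk1a, at 0.07, overlapped. Over the 13 genes of the list the median was 0.64 (0.96 after quantile normalization and 1.11 after centring), 1 was called higher, and Klf5, a zinc finger factor of urothelium, was called lower (-1.29, SE 0.26, adjusted p = 0.0279). The other probe set of Klf5 gave 0.26. Upk3b and Upk1b are also made by mesothelium, and Upk3b is itself a member of the mesothelium list given further on. The part of mesothelium in the values of both genes was not tested. The call of Upk3b was lost without any array but urethra replicate 2, and that of Klf5 without any but urethra replicate 2 and after either rescaling.

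Those regulators of the endodermal lining that were called were lower in bladder, except Gata6. Of 21 tested, 7 were called lower and 1, Gata6, higher, and 15 lay below 0, beside 62.9% of all genes. The median was -1.06 (-1.10 after quantile normalization and -0.59 after centring). Sox2, an HMG-box factor of stratifying endoderm and neural tissue, was 8.06, 7.97 and 7.68 in bladder and 13.01, 12.47 and 13.24 in urethra. The gap between the groups exceeded 4 log2 units, with a difference of -5.0 (SE 0.53, adjusted p = 0.00223). Foxa2, a forkhead factor of endoderm, was not above the filter level on any bladder array (5.65, 6.53 and 5.65) and was 10.95, 10.44 and 10.27 in urethra, at least 8.97-fold higher there (adjusted p = 0.00169). Gata3, a zinc finger factor of urothelium and nephric duct, was 10.24, 10.22 and 10.38 against 13.88, 12.73 and 12.47, a difference of -2.75 (SE 0.38, adjusted p = 0.00701). Grhl2, a Grainyhead factor of epithelia, differed by -2.15 (SE 0.30, adjusted p = 0.00716). The other probe set of Grhl2 gave -0.10, and its call was lost after centring (adjusted p = 0.111). Shh, the hedgehog ligand of this epithelium, was 13.90, 14.24 and 14.24 against 16.28, 15.31 and 15.69, a difference of -1.63 (SE 0.30, adjusted p = 0.0201). Foxa1, related to Foxa2, was 12.92 to 13.29 in bladder and 13.27 to 14.90 in urethra, and the groups overlapped. Of the 7 lower calls, 4, 4 and 4 held without bladder replicate 2, 6 and 8, and 5, 6 and 4 without urethra replicate 1, 2 and 6. Sox2, Foxa2, Gata3 and Grhl2 were called in all 6 of these fits, and after centring 3 members were called lower.

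All calls among the general epithelial genes were lower in bladder, with keratins and a plakophilin of basal and stratified epithelium in front. Of 38 general epithelial genes, 11 were called lower and 0 higher by limma (21 and 0 at an unadjusted p under 0.05), 37 lay below 0 (62.9% of all genes tested did), and 24 had every bladder value below every urethra value (22.4% of all genes did). Krt5, a basal keratin, was 8.32, 8.0 and 7.74 in bladder and 13.87, 11.89 and 13.47 in urethra, a difference of -5.06 (SE 0.49, adjusted p = 0.00169). Krt15, also a basal keratin, was 10.55, 10.27 and 9.50 against 14.28, 14.40 and 14.92, a difference of -4.43 (SE 0.51, adjusted p = 0.00327). These keratins were far apart between the groups on every array. Pkp1, a desmosome protein, was below the filter level on every bladder array and at least 13.5-fold higher in urethra (adjusted p = 0.00345). Krt14 and Krt17, further keratins of basal and stratified cells, were also below it in bladder and at least 3.40-fold and 2.79-fold higher in urethra. Cldn3, a claudin of tight junctions, was at least 5.25-fold higher there, and Lamb3 and Lama3, laminin chains beneath basal cells, were called lower in bladder as well. Krt6a, Pkp3 and Prom1 completed the 11, with differences of -2.79, -2.48 and -1.53.

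Some general markers of epithelium were not called. Krt8, a keratin of simple epithelium, was 15.10, 14.42 and 13.71 in bladder and 15.70, 13.77 and 14.48 in urethra, with overlapping values. Epcam was 13.59, 13.87 and 14.00 against 14.97, 14.17 and 15.21, a difference of -0.97 (adjusted p = 0.086), and Cdh1, which codes for E-cadherin, differed by -0.91 (adjusted p = 0.255). The mean of the 6 epithelium markers, Krt5 among them, was 12.31, 11.81 and 11.34 in bladder and 14.18, 12.81 and 13.49 in urethra, without overlap. Their summed intensity was 36034 to 63138 in bladder and 52194 to 136883 in urethra, with overlap. The part of these markers in the values of the other epithelial genes was not tested. The mean of the whole list was 9.87, 9.60 and 9.28 in bladder and 11.78, 10.56 and 11.32 in urethra. The list median was -1.34 (-1.23 with genes at their bound), -1.15 after quantile normalization and -0.87 after centring, where 6 and 5 members were called lower. Of the 11 calls, 5, 4 and 4 held without bladder replicate 2, 6 and 8, and 4, 7 and 5 without urethra replicate 1, 2 and 6, with Krt5, Krt15 and Pkp1 called in all 6 fits.

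Genes of the cornified epidermis gave 3 calls, all lower in bladder. Asprv1, a protease of the outer epidermis, was below the filter level on every bladder array and at least 7.43-fold higher in urethra (adjusted p = 0.00506). Lor, which codes for loricrin, was 9.79, 9.14 and 9.99 against 11.78, 10.89 and 11.97, and Sbsn, suprabasin, differed by -1.85 (SE 0.41, adjusted p = 0.038). These 3 were the calls among 17 genes, and Krt10, a keratin of epidermis above the basal layer, was not called (-0.03). The list median of -0.34 turned to 0.13 after centring. Without urethra replicate 1, 1 of the 3 calls held, as it did without bladder replicate 2 or 6, and 2 held without each of the other arrays.

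**Figure D3:**
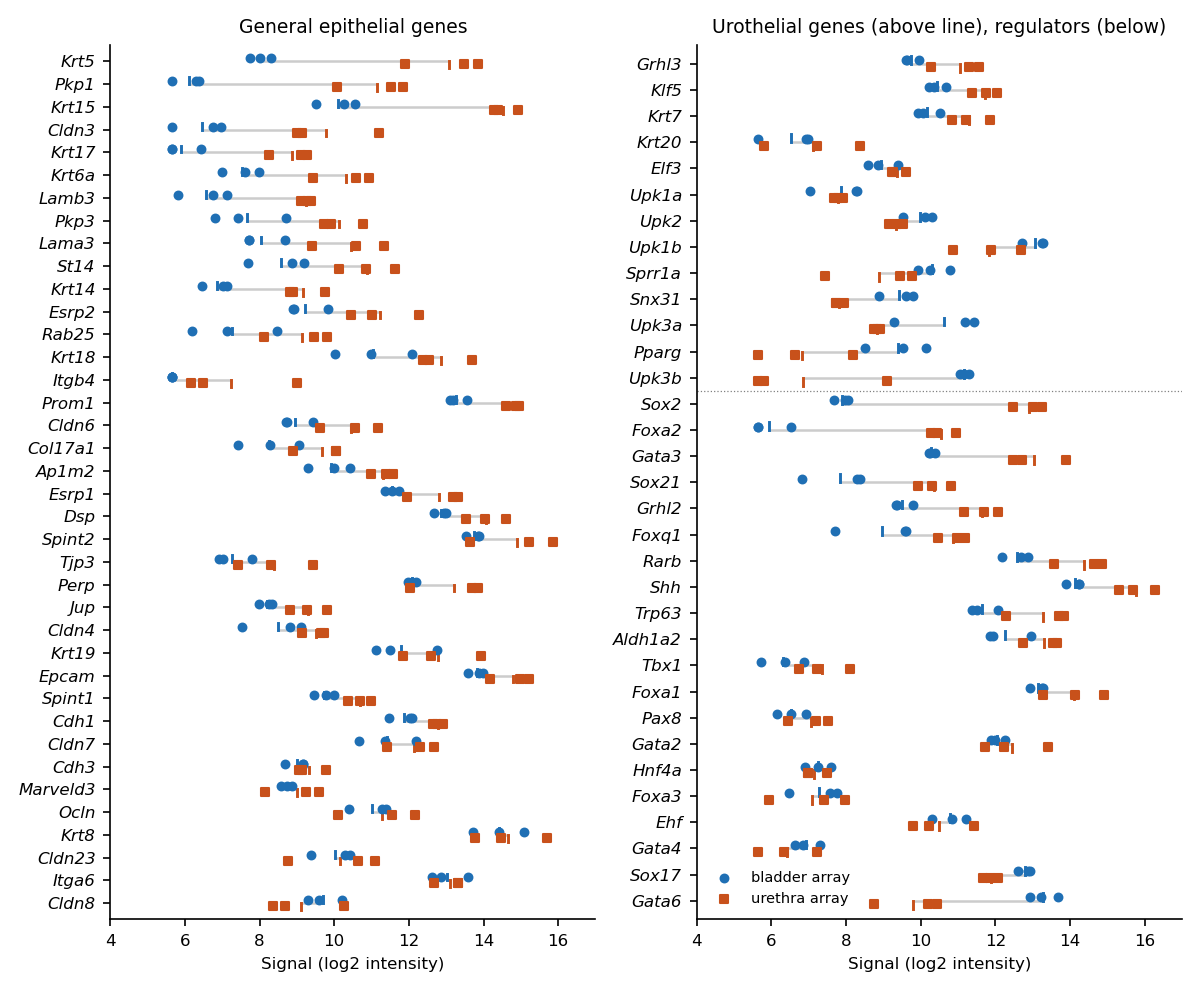
Log2 signal on each bladder array (blue circles) and urethra array (orange squares), with short bars at the group means, for 38 general epithelial genes (left), 13 urothelial differentiation genes (right, above the dotted line) and the endoderm regulators not among them (right, below it). Krt5, Pkp1, Krt15, Sox2 and Foxa2 have the groups far apart with bladder low. Upk3b, Upk3a, Upk1b and Gata6 have bladder high.

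Regulators of the genital tubercle and perineum divided between the T-box genes above and a larger set low in bladder. Of 38 tested, 7 were called lower and 2, Tbx20 and Tbx18, higher (median -0.80, -0.44 after quantile normalization and -0.33 after centring). Sall1, a zinc finger factor of limb, kidney and genital development, was at the floor of the scale on bladder arrays 2 and 6 (5.65 each), 9.09 on bladder array 8, and 13.12, 12.80 and 12.24 in urethra. Its difference of -5.92 (SE 0.83, adjusted p = 0.00749) was the largest of all genes called lower. Sp8, a factor of outgrowing appendages, was at the floor on all 3 bladder arrays and 11.29, 9.19 and 11.15 in urethra, at least 8.90-fold higher (adjusted p = 0.00751). Isl1, a LIM homeodomain factor, was 10.58, 10.53 and 12.67 against 15.67, 14.43 and 14.75, a difference of -3.69 (SE 0.53, adjusted p = 0.00851). Bladder replicate 8 was the highest bladder array for Sall1 and Isl1, and also for Six2 (7.68, 5.65 and 8.41, against 10.43 to 11.27 in urethra) and Eya1 (9.19, 9.27 and 11.22, against 12.60 to 12.88). Twist1, a basic helix-loop-helix factor of mesenchyme, was 8.65, 9.08 and 8.97 against 11.07, 11.95 and 11.99, a difference of -2.77 (SE 0.38, adjusted p = 0.00702). Irx5 was below the filter level in bladder and at least 2.77-fold higher in urethra (adjusted p = 0.0144). The lower calls numbered 4, 5 and 7 of 7 without bladder replicate 2, 6 and 8, and 5, 6 and 5 without urethra replicate 1, 2 and 6.

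Some genes of that list leaned to the bladder without a call. Hand2 differed by 1.97 (adjusted p = 0.0645) and Pitx1 by 1.80 (adjusted p = 0.22), with every bladder value above every urethra value in both. Lhx8, a LIM homeodomain factor outside the list, was below the filter level in bladder and at least 11.9-fold higher in urethra (adjusted p = 0.0295), but its call was lost without any array. The SD of Lhx8 was 0.64 in bladder, 0.93 in urethra and 2.00 in the sinus, and it was called with the 6 arrays alone. Pdlim4, a LIM protein of the actin skeleton, was 6.89, 5.65 and 7.98 against 11.98, 12.23 and 11.96, a difference of -5.21 (SE 0.52, adjusted p = 0.00169). Cbr2, a carbonyl reductase, was at least 13.6-fold higher in urethra and Lrig3, a leucine-rich repeat membrane protein, differed by -4.63 (SE 0.43), both with an adjusted p of 0.00169 and both called in all 25 settings. Scn3a, a neuronal sodium channel, differed by -4.73 (SE 0.90, adjusted p = 0.023), and its bladder values were 5.73, 5.65 and 8.04. Its call was lost without any array but bladder replicate 8.

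Hox genes, which specify position along the body axis, gave few calls. Hoxd13, the most distal gene of its cluster, was 13.74, 13.77 and 13.70 in bladder and 15.78, 14.96 and 15.06 in urethra. The 3 bladder values were nearly equal, and the difference was -1.53 (SE 0.23, adjusted p = 0.0101). Hoxd11 was below the filter level in bladder and at least 1.58-fold higher in urethra (adjusted p = 0.0357). Hoxd9, Hoxd10 and Hoxa9 to Hoxa11 differed by -0.61 to 0.25, and Hoxa13 and Hoxb13, of the same position as Hoxd13, by -1.06 and -1.32, none of them called. Those were the 2 calls of 15 posterior Hox genes, whose median of -0.38 turned to 0.09 after centring, where 0 were called by limma. Hoxd13 lost its call without bladder replicate 6, and Hoxd11 without any array but urethra replicate 1. Hoxb2 was the 1 call of 15 anterior and central Hox genes (-1.36, SE 0.29, adjusted p = 0.0315), and it was lost without any array and after either rescaling.

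The hedgehog pathway had its ligand and a feedback inhibitor lower in bladder. Beside Shh, given above, Hhip, a decoy receptor that binds hedgehog ligand, was 10.07, 9.96 and 9.79 against 11.03, 11.39 and 11.74, a difference of -1.45 (SE 0.27, adjusted p = 0.0222). Gas1, a co-receptor of hedgehog ligand, was higher by 1.00 (SE 0.23, adjusted p = 0.0454) and turned to -0.33 with title form as a block. Ptch1, the receptor and a target of the pathway, was 15.19 to 15.34 in bladder and 15.19 to 15.67 in urethra, with overlapping values. Gli1, a target and effector, was 9.28, 8.41 and 7.68 against 10.50, 10.78 and 9.85, a difference of -1.92 that was not called (adjusted p = 0.125). The 3 calls of 15 were lost without bladder replicate 2, 6 or 8 or urethra replicate 6 (0 held), and the median of -0.37 turned to 0.10 after centring. After centring 0 of the 15 were called by limma (adjusted p = 0.203 for Shh and 0.254 for Hhip). Hhip and Gas1 also lost their calls after quantile normalization (adjusted p = 0.054 and 0.0767).

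Of 43 Wnt pathway genes, 8 were called lower in bladder and 1 higher, and 34 lay below 0, beside 62.9% of all genes. Ror2, a receptor for Wnt5a, was 10.93, 10.04 and 10.30 against 13.10, 12.60 and 12.69, a difference of -2.37 (SE 0.33, adjusted p = 0.00749). The related receptor Ror1 differed by -1.91 (SE 0.29, adjusted p = 0.00958), and the Frizzled receptor Fzd7 was 13.85, 13.83 and 13.87 against 15.33, 14.97 and 15.01, a difference of -1.25 (SE 0.18, adjusted p = 0.00751). All 3 receptors were called without each array in turn. Among ligands and agonists, Wnt5a was 10.39, 10.64 and 11.65 against 13.02, 11.89 and 12.50 (-1.57, adjusted p = 0.0467), Wnt10a differed by -2.82 (adjusted p = 0.0388), and Rspo2, a secreted Wnt agonist, by -2.53 (SE 0.43, adjusted p = 0.0164). Axin2, a feedback target of canonical Wnt signalling, differed by -1.24 (adjusted p = 0.036). Sfrp4, a secreted inhibitor, was below the filter level in bladder and at least 1.75-fold higher in urethra, whereas Sfrp1, of the same family, was higher in bladder by 1.79 (SE 0.42, adjusted p = 0.0462), a call lost without any array. Wnt2, a ligand, leaned to bladder (2.33, adjusted p = 0.13) and Rspo3, an agonist, to urethra (-3.25, adjusted p = 0.0744), both without a call. The median was -0.77, -0.56 after quantile normalization (4 called lower) and -0.30 after centring (1 called lower). Of the 8 lower calls, 3, 3 and 5 held without bladder replicate 2, 6 and 8, and 3, 4 and 5 without urethra replicate 1, 2 and 6.

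BMP pathway genes went both ways, with 4 of 28 called higher and 2 lower in bladder. Bmper, a secreted modulator that binds BMPs, was 13.79, 13.86 and 14.17 against 9.25, 10.82 and 11.09, a difference of 3.56 (SE 0.52, adjusted p = 0.00894). Id4 and Id2, targets of BMP signalling that block helix-loop-helix factors, were higher by 2.35 (SE 0.48, adjusted p = 0.0287) and 1.18 (SE 0.22, adjusted p = 0.0211). The 2 other probe sets of Id2 gave -0.83 and 1.28. Bambi, a decoy receptor, was 14.17, 13.78 and 13.90 against 13.10, 11.68 and 10.99 (adjusted p = 0.0483). The ligand Bmp7 was lower, at 9.65, 8.77 and 9.78 against 12.39, 11.48 and 11.80, a difference of -2.49 (SE 0.38, adjusted p = 0.0107) with 2 further probe sets at -3.86 and -3.21. Chrdl1, a secreted antagonist, was below the filter level in bladder and at least 2.17-fold higher in urethra (adjusted p = 0.0349). Bmp4, a ligand of the mesenchyme, differed by -1.07 and was not called. Bmper and Bmp7 were called without each array in turn, 1, 1, 1, 3, 2 and 2 of the 4 higher calls held without bladder replicates 2, 6 and 8 and urethra replicates 1, 2 and 6, and the list median of -0.29 turned to 0.09 after quantile normalization and 0.18 after centring.

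Retinoic acid genes were lower in bladder where they were called, 4 of 20. Aldh1a1, a retinaldehyde dehydrogenase that makes retinoic acid, was 7.39, 6.21 and 9.25 against 11.95, 11.95 and 12.56, a difference of -4.53 (SE 0.74, adjusted p = 0.0135). Crabp1, a retinoic acid binding protein, was below the filter level in bladder and at least 4.12-fold higher in urethra (adjusted p = 0.0166), and Crabp2 differed by -1.57 (SE 0.29, adjusted p = 0.0222). Rarb, a receptor and target, was 12.88, 12.68 and 12.17 against 13.58, 14.66 and 14.87, a difference of -1.79 (SE 0.33, adjusted p = 0.022). Aldh1a2, the mesenchymal dehydrogenase, differed by -1.06, and Rdh10, which makes its substrate, by 1.14, neither called. The median was -0.93, -0.72 after quantile normalization and -0.46 after centring, with 2 called lower in each. The number of the 4 calls that held was 0, 1 and 2 without bladder replicate 2, 6 and 8, and 2, 1 and 2 without urethra replicate 1, 2 and 6.

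Other signalling lists gave 0 to 4 calls in a direction. Of 18 genes in the FGF list 0 were called by limma (1 lower at an unadjusted p under 0.05), and the smallest p was that of Fgf1, which was below the filter level in bladder and at least 1.48-fold higher in urethra (adjusted p = 0.141). In the TGF-beta list of 21, the activin receptor Acvr2b differed by -2.87 (SE 0.58, adjusted p = 0.027) and the co-receptor Tgfbr3 by 1.51 (SE 0.36, adjusted p = 0.0483). The other probe set of Tgfbr3 gave -0.11. In the Notch list of 20, the effectors Hes6 (-2.30, adjusted p = 0.0427) and Hes1 (-1.88, adjusted p = 0.0148) were called lower. Igfbp2, an IGF binding protein, was 8.02, 7.83 and 8.98 against 12.92, 12.73 and 12.64, a difference of -4.48 (SE 0.48, adjusted p = 0.00223) that held without each array in turn. Igfbp5, of the same family, differed by -2.11 (SE 0.39, adjusted p = 0.022), and these were the 2 calls of 20 in the IGF list. Among 18 ephrin genes, Epha5 (-3.32) and Epha7 (-2.0) were called lower and Ephb1 (2.67) higher. Of 29 semaphorin and guidance genes, Dcc, Plxnb1, Sema6a and Sema3c were called lower and Unc5b higher, and the netrin receptor Dcc was 8.63, 9.23 and 9.20 against 11.92, 11.96 and 11.54 (-2.78, SE 0.31, adjusted p = 0.00314). Of the calls in this paragraph, those of Igfbp2, Dcc and Sema6a held without each array in turn. Sema6a lost its call after quantile normalization (adjusted p = 0.054) and after centring (0.123). After centring the Notch list had 0 calls by limma, the IGF list 1 lower, the ephrin list 1 higher and 0 lower, and the guidance list 0 higher and 1 lower. The Notch median of -0.47 turned to -0.03 after quantile normalization and 0.003 after centring, and the IGF median of -0.24 to 0.10 and 0.23. Hsd11b1, which activates glucocorticoid, was the 1 call of 9 in the steroid list (1.70, SE 0.39, adjusted p = 0.0428), and it was lost without any array but urethra replicate 1.

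Neurotrophic factors and their receptors gave 4 lower calls and 1 higher call. Gdnf, the ligand of the Ret and Gfra1 receptor complex, was 5.65, 5.65 and 6.19 in bladder and 10.80, 10.50 and 10.94 in urethra. It was below the filter level on every bladder array and at least 10.2-fold higher in urethra (adjusted p = 0.027), but the call was lost without any array. The SD of Gdnf was 0.31 in bladder, 0.23 in urethra and 2.09 in the sinus, and it was called with the 6 arrays alone. Gfra1, its co-receptor, was 10.62, 10.85 and 11.71 against 13.87, 13.73 and 13.65, a difference of -2.69 (SE 0.30, adjusted p = 0.00278) called in all 25 settings. Gfra3 and Ntrk3, receptors of artemin and neurotrophin-3, differed by -2.75 and -2.71. The 5 other probe sets of Ntrk3 ran from -1.44 to 0.49. Bdnf, a neurotrophin, was 10.86, 11.47 and 11.36 against 9.14, 9.42 and 9.35, a difference of 1.93 (SE 0.38, adjusted p = 0.0251) that turned to -0.42 with title form as a block and came with another probe set at -0.09. These were the 5 calls of 16. Of the 16, 10 lay below 0, beside 62.9% of all genes, and the median was -0.77 (-0.45 after quantile normalization and -0.30 after centring). Without each array in turn, 1 or 2 of the 4 lower calls and 0 of the 1 higher call held.

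Neuronal genes gave 1 call. Of 32 neuronal genes, 29 lay below 0, beside 62.9% of all genes. The median was -1.39 (-1.14 with genes at their bound, -1.06 after quantile normalization and -0.92 after centring). Only Rbfox1, a neuronal splicing factor, was called, at least 3.65-fold higher in urethra (adjusted p = 0.0224). That is 1 of 32, beside 2.66% of all genes called lower. The 3 other probe sets of Rbfox1 ran from -2.13 to 0.04. Rbfox1 lost the call without bladder replicate 2 or 6 or urethra replicate 2 or 6. The list mean was 7.06, 7.16 and 8.34 on the bladder arrays and 7.70, 9.32 and 9.40 on the urethra arrays. Bladder replicate 8 thus lay above urethra replicate 1. In the neural crest and Schwann cell list of 16 genes, 3 were called lower. Tfap2a, a factor of crest and surface ectoderm, was 8.60, 8.46 and 8.79 against 13.43, 12.78 and 12.65, a difference of -4.34 (SE 0.42, adjusted p = 0.00169) called in all 25 settings. Its relative Tfap2b was below the filter level in bladder and at least 2.00-fold higher in urethra, a call lost without any array but bladder replicate 8 and after either rescaling. Gata3, given above, was the third. Sox10, which marks crest and Schwann cells, differed by -1.03 and was not called.

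Matrix genes were called in both directions. Lum, the collagen-binding proteoglycan lumican, was 14.15, 14.51 and 14.71 against 11.52, 11.27 and 10.68, a difference of 3.30 (SE 0.45, adjusted p = 0.00701). Thbs2, a thrombospondin, was 12.73, 12.99 and 14.35 against 10.28, 10.80 and 10.35, a difference of 2.88 (SE 0.41, adjusted p = 0.00824). Fbln5 and Mfap5, proteins of elastic fibres, were higher by 2.76 and 2.31, and Nid2, Bgn and Ccn3 by 1.55, 1.54 and 1.59. On the other side, Smoc1, a secreted calcium-binding protein, was 9.24, 8.92 and 8.95 against 12.56, 13.43 and 12.55, a difference of -3.81 (SE 0.31, adjusted p = 0.00169). Tnc, which codes for tenascin-C, differed by -2.78 (SE 0.47, adjusted p = 0.016), Efemp1 by -2.45 and the proteoglycan Sdc1 by -1.95. These were the 7 higher and 4 lower calls of 48 proteoglycan and matricellular genes, with a median of 0.13 (0.14 after quantile normalization and 0.59 after centring). Lum, Thbs2 and Smoc1 were called without each array in turn, and of the 7 higher calls 2, 2 and 2 held without bladder replicate 2, 6 and 8, and 3, 2 and 3 without urethra replicate 1, 2 and 6.

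Collagens were called in both directions, integrins and laminins mainly lower and proteases only higher. Of 26 collagen genes, Col14a1 (1.85, SE 0.32, adjusted p = 0.0171), Col16a1 (1.70, SE 0.28, adjusted p = 0.0143), Col8a2 (2.02) and Col25a1 (1.5) were called higher. Col23a1, a transmembrane collagen, was 7.79, 7.91 and 8.65 against 12.73, 11.89 and 11.65, a difference of -3.98 (SE 0.46, adjusted p = 0.00319), and Col26a1 differed by -2.21. The main fibrillar chains Col1a1, Col1a2 and Col3a1 differed by 1.22, 0.61 and -0.36 and were not called. Itgb3, an integrin beta chain, was 11.02, 11.17 and 10.65 against 7.72, 6.59 and 7.89, a difference of 3.54 (SE 0.41, adjusted p = 0.00345), and it was the 1 higher call of 26 integrin and laminin genes beside 3 lower calls (Lamb3, Lama3 and Npnt). Adam12, Mmp9, Htra1 and Adamts4 were the 4 higher calls of 27 matrix proteases and inhibitors, with differences of 2.72, 2.23, 2.31 and 2.07 and 0 lower calls by limma (7 higher and 3 lower at an unadjusted p under 0.05). The other probe set of Adam12 gave 0.46. Itgb3 and Col23a1 were called without each array in turn, whereas 0 of the 4 higher collagen calls held without bladder replicate 2 or 6, and 0 of the 4 protease calls held without bladder replicate 2.

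**Figure D4:**
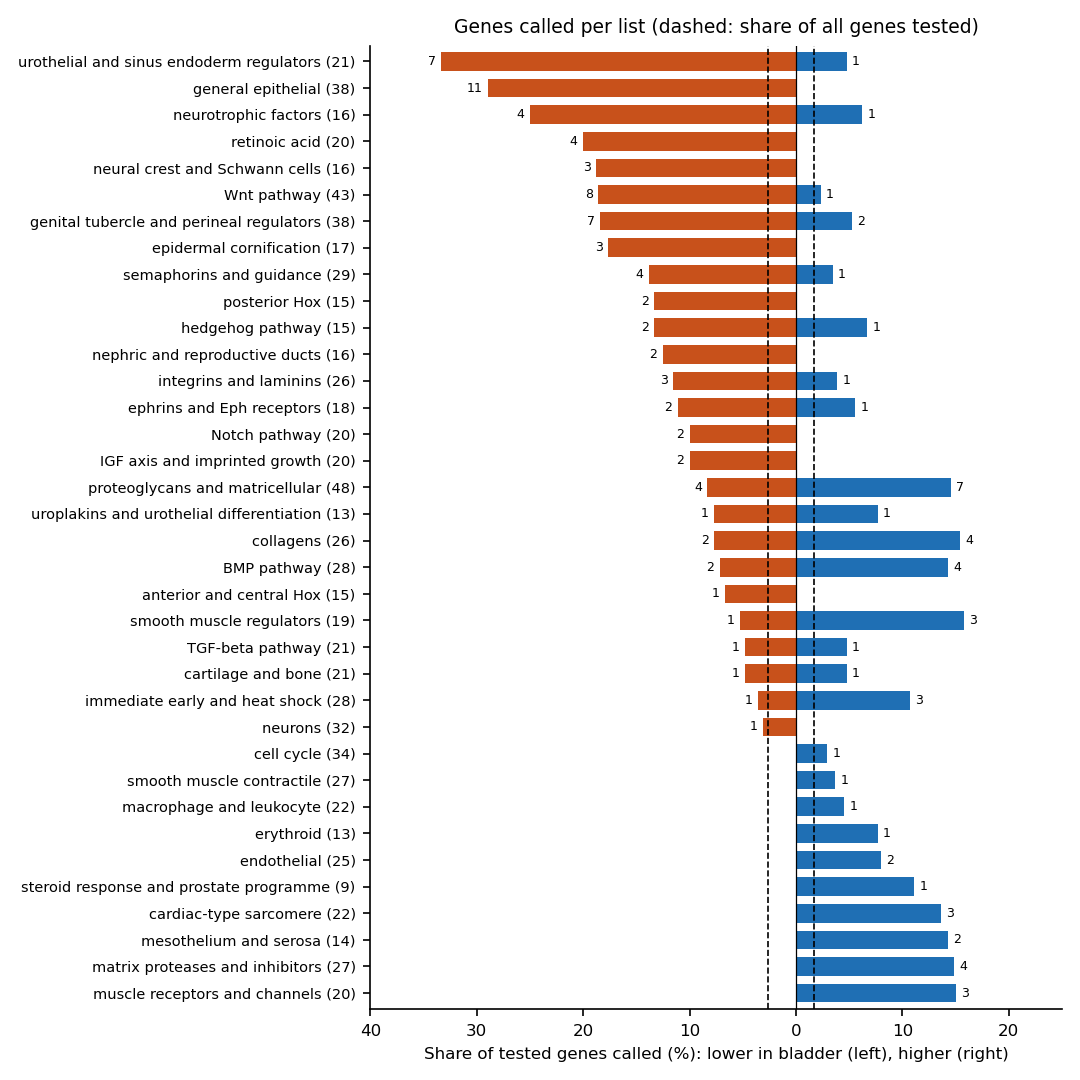
Share of each list's tested genes that was called lower (orange, left) or higher (blue, right) in bladder, for the lists with at least 1 call, with the number of calls at the bar's end and the number tested in parentheses. Dashed lines mark the shares over all genes tested, 2.66% lower and 1.72% higher. The longest bars on the left are those of the endoderm regulators (7 of 21) and the general epithelial genes (11 of 38).

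Other cell types of the pieces were followed through their markers. Genes of mesothelium, the serosal cover of the upper bladder, had a list mean of 10.31, 10.23 and 10.62 in bladder and 9.05, 9.50 and 8.78 in urethra. Tbx18 and Upk3b were the 2 calls of 14, both lost without any array but urethra replicate 2, and the median was 1.13 (1.39 after quantile normalization and 1.60 after centring, and 0.75 with genes at their bound). Summed intensity of its 4 markers Wt1, Msln, Upk3b and Lrrn4 was 3471 to 4044 in bladder and 287 to 1498 in urethra. Its marker Msln, which codes for mesothelin, was below the filter level on every urethra array. Tbx18 and Upk3b are themselves members of the list, and Upk3b is also 1 of the 4 markers. The part of mesothelium in their values was not tested.

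Vessel genes differed singly. Lyve1, a hyaluronan receptor of lymphatic vessels and some macrophages, was 10.69, 10.71 and 12.04 in bladder, below the filter level on every urethra array, and at least 13.5-fold higher in bladder (adjusted p = 0.0155). Its other probe set gave 1.52, and the call was lost without bladder replicate 6 or 8. Kdr, the main VEGF receptor, was 12.53, 12.70 and 11.61 against 9.04, 10.51 and 11.17, a difference of 2.04 (SE 0.49, adjusted p = 0.0483) lost without any array but urethra replicate 6. The vessel marker Pecam1 was 8.04 to 8.86 in bladder and 8.16 to 8.68 in urethra, with overlapping values. The summed intensity of the 4 endothelial markers Pecam1, Cdh5, Kdr and Tek was 11695 to 13740 in bladder and 5380 to 6671 in urethra. Kdr is itself part of that sum, so the sum is not a separate measure for Kdr. The part of vessel cells in the values of Kdr was not tested. The median of the 25 endothelial genes was -0.07 (0.17 after quantile normalization and 0.40 after centring). Mrc1, the mannose receptor of macrophages, was higher in bladder by 2.10 (SE 0.45, adjusted p = 0.0333), the 1 call of 22 and lost without any array but urethra replicate 2, whereas the macrophage markers Csf1r and Cd68 were not called (-0.29 and -1.24). Of the 22 macrophage and leukocyte genes, 17 lay below 0, beside 62.9% of all genes. At an unadjusted p under 0.05, 1 was higher and 6 lower by limma. The list mean was 8.35 to 8.72 in bladder and 8.90 to 9.21 in urethra. The list median of -0.36 turned to 0.03 after quantile normalization and 0.11 after centring.

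Red cell, cartilage and cell cycle genes gave single calls. Embryonic globin Hbb-bh1 was 9.06, 8.03 and 7.41 in bladder and 14.51, 10.17 and 8.49 in urethra, so urethra replicate 1 stood far above the rest, and the difference was not called (adjusted p = 0.352). Tfrc, the transferrin receptor, was the 1 call of 13 erythroid genes (0.98, SE 0.23, adjusted p = 0.0468), lost without any array. The 2 other probe sets of Tfrc gave -0.12 and 0.25. Col2a1, the main cartilage collagen, was below the filter level on every bladder array and 9.12, 9.81 and 9.37 in urethra, at least 4.12-fold higher (adjusted p = 0.00686), and Hapln1, a cartilage link protein, was higher in bladder by 2.06 (adjusted p = 0.0288). The call of Col2a1 held without each array in turn, and that of Hapln1 was lost without any array but urethra replicate 1. The 3 other probe sets of Hapln1 ran from -0.003 to 1.14. Of 34 cell cycle genes, 24 lay above 0, beside 37.1% of all genes, with a median of 0.23 (0.22 after quantile normalization and 0.70 after centring). Bladder arrays had list means of 12.91 to 13.04 and urethra arrays of 12.59 to 12.80, without overlap, and Aurkb, a mitotic kinase, was the 1 call (0.96, SE 0.20, adjusted p = 0.0309). Leaving out any array, or either rescaling, ended the call of Aurkb. Genes of nephric ducts gave 2 lower calls of 16, Sall1 and Gata3. Intestinal, gonadal and liver genes gave 0 calls by limma of 11, 10 and 14 (0, 1 and 2 at an unadjusted p under 0.05), with the smallest p at Cdh17 (adjusted p = 0.391), Inha (0.114) and Rbp4 (0.13).

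**Figure D5:**
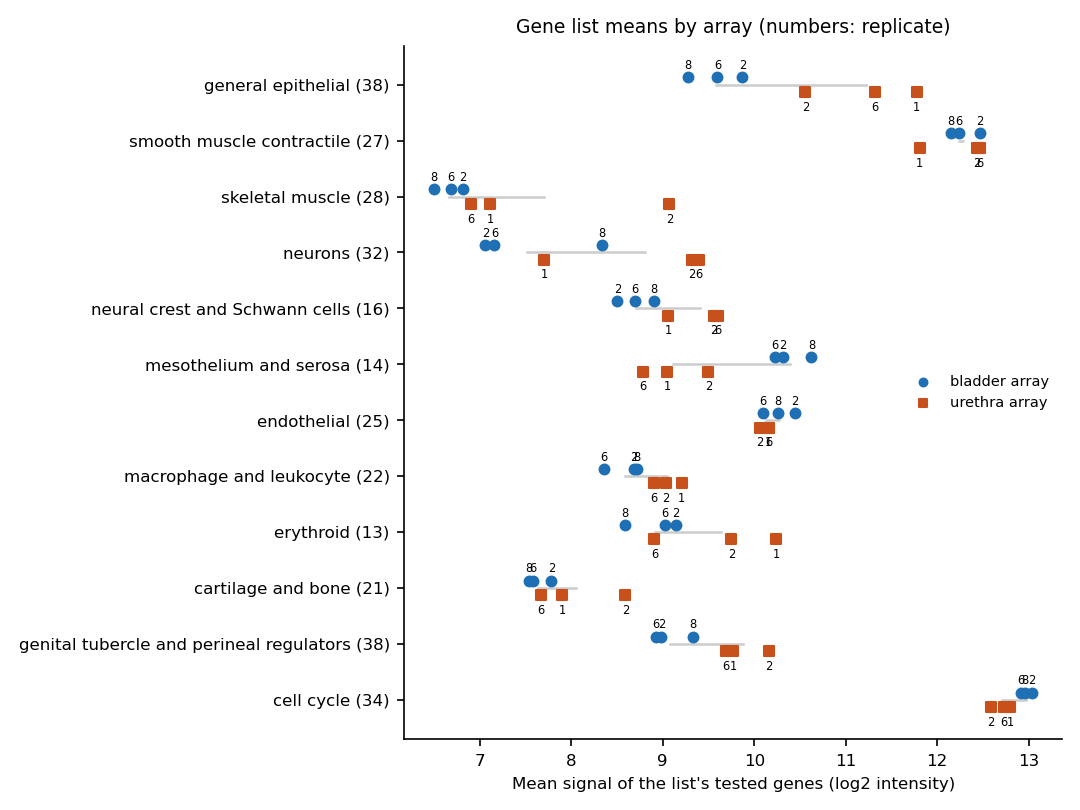
Mean log2 signal of the tested genes of 12 lists on each bladder array (blue circles) and urethra array (orange squares), with the replicate number beside each point and the number of genes in parentheses. Means do not overlap between the regions for general epithelial, skeletal muscle, neural crest, mesothelium, macrophage, genital tubercle and cell cycle genes. They overlap for the other lists. The skeletal muscle mean of urethra replicate 2 (9.07) stands apart from the other 5 arrays.

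Immediate early and heat shock genes went both ways. Nr4a3, Klf6 and Klf4 were the 3 higher calls of 28, and Klf6, a zinc finger factor, was 13.39, 13.56 and 14.02 against 11.73, 11.70 and 11.92 (1.87, SE 0.30, adjusted p = 0.0119). Jun, a subunit of the AP-1 factor, was called lower (-1.54, SE 0.34, adjusted p = 0.0373), whereas Fos and Egr1 differed by -0.21 and 0.05. The list median was 0.06, 0.35 after quantile normalization and 0.53 after centring. Without bladder replicates 2, 6 and 8, 2, 1 and 2 of the 3 higher calls held.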

How the data were processed

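RNA was amplified in 2 rounds and hybridized to Affymetrix MOE430 arrays, per the labels' protocols. The deposited values are linear signal intensities of 45101 probe sets on each of 13 arrays, in a table by the authors. The submitters' processing notes name GCOS, without a version, and other steps are not given in the sources consulted here. The 2% trimmed mean was 1500 on every array, so the deposited intensity values were used as scaled. That scaling does not fix the median.

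Intensities were floored at the 20th percentile (50.23, log2 5.65) then put on the log2 scale. Leaving out 64 control probe sets, 34945 carried 1 gene symbol, 932 several and 9160 none, and 34741 symbols matched RefSeq GRCm38.p6 by Entrez identifier. Probe sets above the 40th percentile (167.76, log2 7.39) on at least 3 arrays were kept (33125), and the brightest stood for each gene, which gave 15019 genes. No build is stated for the probe sets.

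The 10 embryonic arrays were fitted together in limma 3.58.1 under R 4.3.3 (lmFit, then moderated variances that follow mean intensity, by eBayes, with 7 residual degrees of freedom). P-values are two-sided and Benjamini-Hochberg adjusted over all 15019 genes. A gene below the filter level on every array of 1 region has only a bound: "at least" folds set the brighter group's mean against, per array, the higher of the filter level and the gene's own signal. With 3 arrays against 3, no exact permutation p can go below 0.1, so none is given. The fit was tested on simulated data.

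Named genes were Actg2, the 12 largest called differences in each direction, and the 4 called members of smallest adjusted p of each of 42 lists (864 genes tested), or the member of smallest p. Other members are named where a list is described. The comparison, the lists and their members were chosen with earlier results of these data known, so no list is given a test.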

Additional observations from a re-analysis of the deposited data

How the results depend on the processing

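Beside 658 genes called (258 higher and 400 lower in bladder), quantile normalization gave 405 (225 and 180) and centring 329 (239 and 90), so the share higher went from 39.2% to 55.6% and 72.6%. Of the 658, 359 and 270 were called there. Leaving out 1 array at a time gave 107 to 348 calls, 33 to 156 of them higher and 74 to 192 lower, with the fewest without bladder replicate 6. More were called with array weights (1896, as 709 and 1187) and without sinus replicate 1 (1302, as 531 and 771). Title form as a block gave 56 (4 and 52) and turned Kcnq5 to -0.98, Gas1 to -0.33 and Bdnf to -0.42, and the cause was not tested. Replicate numbers are shared by 2 pairs only, and deviations of same-numbered arrays correlated at 0.096 and 0.167 against -0.368 to 0.260 for the other pairs, so the numbers do not establish a pairing. A fixed replicate block left 167 calls (53 and 114) on 3 residual degrees of freedom, and a random one gave 1179 (462 and 717). The other 11 settings (floors, filters, probe set rules, arrays in the fit, robust or untrended variances, stage as a covariate) gave 493 to 800 calls. An alternative chosen after seeing the data, without both arrays numbered 1, gave 543. Among 25 settings, 13 genes were called in all, and 64 (22 higher and 42 lower) in the 23 without a fixed block. Signal over background limits genes near the filter level, for which only bounds are given.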

Other observations

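Several genes outside the lists differed as steadily as those in them, and they are named here after their values were seen. Cyp1b1, a cytochrome P450, was 13.59, 13.79 and 13.84 in bladder and 10.12, 9.77 and 10.01 in urethra, a difference of 3.77 (SE 0.42, limma adjusted p = 0.00285). Dsc2, a desmosomal cadherin, was 11.27, 12.02 and 12.43 against 8.72, 8.23 and 9.02, a difference of 3.25 (SE 0.40, adjusted p = 0.00409), although the desmosome proteins Pkp1 and Pkp3 were lower in bladder. Both were called in all 25 settings. Cavin2, a coat protein of caveolae as Cav1 is their main protein, was 14.70, 14.88 and 14.73 against 9.92, 11.93 and 11.37, a difference of 3.69 (SE 0.55, adjusted p = 0.00896).

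On the urethra side, Foxd2, a forkhead factor, was 7.67, 7.55 and 7.59 in bladder and 10.89, 11.27 and 11.54 in urethra, a difference of -3.63 (SE 0.30, adjusted p = 0.00169) called in all 25 settings. Foxc1, of the same family, was 9.15, 9.08 and 8.92 against 12.35, 11.75 and 11.55. Irx2, an Iroquois factor, was below the filter level on every bladder array and at least 9.90-fold higher in urethra (adjusted p = 0.00216). Kif26b, a kinesin family member, was 11.45, 11.48 and 12.40 against 14.16, 14.31 and 13.98, a difference of -2.38 (SE 0.28, adjusted p = 0.00345) called in all 25 settings. Cldn11, a claudin, differed by -4.53 (SE 0.45, adjusted p = 0.00169).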
